A study of Homo sapiens with 6 samples.

Results

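The genes described here belong to the unfolded protein response and to the ATF4 amino acid response, in breast cancer cells in which WASF3 was kept low by RNA interference. They are 43 genes chosen by name with earlier results of these data known, all of them measured, among 19775 genes on the array. Each was read on the probe set annotated to its symbol that had the highest mean over the 6 arrays. They were sorted into lists labelled ATF4 regulators (10 genes), ATF4 amino acid branch (13 genes, 8 enzymes and 5 transporters), stress sensors (4 genes) and ER chaperone branch (16 genes). The last holds 13 chaperones and folding enzymes and 3 genes of ER-associated degradation. The labels are loose. The regulator list also holds CHAC1, SESN2 and VLDLR, which do not regulate ATF4. The sensor list also holds XBP1, which is the factor through which the sensor encoded by ERN1 acts.

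All samples were MDA-MB-231 cells, an established and highly invasive line of triple-negative breast cancer, at passage 4 and resistant to puromycin. Knockdown cells carried a retroviral pSM2 vector with either of 2 hairpins against WASF3, an activator of branched actin growth, and control cells carried the empty vector or a hairpin against GFP. Infected cells were kept for 2 weeks in 1.0 µg/ml puromycin in medium with 10% serum. Single resistant clones were then expanded, and 3 knockdown clones and 3 control clones gave 1 array each. Each clone descends from 1 cell, and the labels do not say which hairpin or control vector it carries, so differences between clones, between hairpins and between vectors cannot be told apart. The p-values below measure the spread between these clones.

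The unfolded protein response is started by 3 sensors in the membrane of the endoplasmic reticulum (ER). ATF6 and the IRE1 kinase, encoded by ERN1 and acting through the spliced factor XBP1, switch on chaperones and degradation genes, while PERK, encoded by EIF2AK3, phosphorylates the translation factor eIF2. Phosphorylated eIF2 lowers general translation and favours translation of ATF4, so ATF4 activity is set largely at the protein level, which an RNA array does not read. The same step is reached from amino acid shortage through the kinase GCN2. ATF4 in turn switches on amino acid transporters, the serine and asparagine pathways and feedback genes such as TRIB3 and PPP1R15A, and in tumour cells it is known for supporting growth when nutrients are scarce.

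The branches answer to different factors, so the DNA around the start site is shown for 5 members, with matches to 3 response elements in capitals. Sequences come from RefSeq on GRCh38.p14, run from 250 bases before to 50 bases after a start site and are written on the strand of the gene. Matches were sought on both strands to TGATGNAA (the core of the C/EBP-ATF response element bound by ATF4), to the ER stress response element ERSE (CCAAT and CCACG with 9 bases between them), to ERSE-II (ATTGG and CCACG with 1 base between them) and to TGACGTGG, bound by XBP1 and ATF6. ASNS (chr7:97872359-97872658, minus strand) and CHAC1 (chr15:40953221-40953520, plus strand) stand for ATF4 targets. HSPA5 (chr9:125241294-125241593, minus strand) and CRELD2 (chr22:49918384-49918683, plus strand) stand for the chaperone branch, and HERPUD1 (chr16:56931892-56932191, plus strand) held a match to TGATGNAA and a match to ERSE-II.
ASNS: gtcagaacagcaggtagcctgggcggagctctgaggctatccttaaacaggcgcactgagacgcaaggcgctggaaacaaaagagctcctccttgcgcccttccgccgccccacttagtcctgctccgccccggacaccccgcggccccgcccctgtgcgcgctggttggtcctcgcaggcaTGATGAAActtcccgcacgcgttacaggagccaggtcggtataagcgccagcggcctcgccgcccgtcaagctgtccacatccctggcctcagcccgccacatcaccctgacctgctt
CHAC1: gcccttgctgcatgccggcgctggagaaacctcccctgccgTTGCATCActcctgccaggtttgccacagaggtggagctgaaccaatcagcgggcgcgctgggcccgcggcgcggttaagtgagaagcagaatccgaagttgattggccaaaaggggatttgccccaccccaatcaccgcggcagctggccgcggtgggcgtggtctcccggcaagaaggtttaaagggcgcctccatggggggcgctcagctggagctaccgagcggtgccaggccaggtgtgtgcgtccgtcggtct
HSPA5: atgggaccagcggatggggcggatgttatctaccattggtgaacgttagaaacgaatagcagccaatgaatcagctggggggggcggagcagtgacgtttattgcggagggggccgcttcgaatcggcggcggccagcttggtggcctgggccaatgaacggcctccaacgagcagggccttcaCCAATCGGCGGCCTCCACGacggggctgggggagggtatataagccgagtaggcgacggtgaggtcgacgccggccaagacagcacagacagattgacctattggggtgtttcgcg
CRELD2: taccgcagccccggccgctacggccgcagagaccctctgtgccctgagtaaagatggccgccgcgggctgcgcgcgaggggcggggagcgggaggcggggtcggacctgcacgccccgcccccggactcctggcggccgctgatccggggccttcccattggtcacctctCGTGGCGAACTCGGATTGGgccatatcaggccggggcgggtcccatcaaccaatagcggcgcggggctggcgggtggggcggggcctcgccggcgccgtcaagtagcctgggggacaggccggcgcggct
HERPUD1: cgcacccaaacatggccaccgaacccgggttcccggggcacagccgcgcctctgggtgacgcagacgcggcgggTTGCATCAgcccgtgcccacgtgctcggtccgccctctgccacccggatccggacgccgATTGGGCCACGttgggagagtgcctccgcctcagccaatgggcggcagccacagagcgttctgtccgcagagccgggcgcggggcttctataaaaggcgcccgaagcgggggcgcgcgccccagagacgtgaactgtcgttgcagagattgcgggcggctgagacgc

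The first base of the ATF4 core lay 68 bases before the start site in ASNS, 209 in CHAC1 and 176 in HERPUD1, on the reverse strand in CHAC1 and HERPUD1. The ERSE lay 66 bases before the start in HSPA5 and 80 in CRELD2, on the reverse strand in CRELD2, and the ERSE-II of HERPUD1 lay 117 bases before it. Windows were found for 39 of the 43 members, 58 in all because some genes have several start sites, and a gene was counted when any of its windows held a match. PSPH, SHMT2, ALDH1L2 and SLC7A11 had no entry. TGATGNAA was found in 4 of 9 genes of the amino acid branch (ASNS, SLC3A2, SLC7A1 and SLC1A5), in 2 of 10 regulators (CHAC1 and CEBPG) and in 1 of 16 genes of the chaperone branch (HERPUD1), against 4.46% of 27305 genes with 35116 windows. ERSE was found in 6 of 16 chaperone branch genes (HSPA5, HSP90B1, CALR, CANX, CRELD2 and PDIA6), in XBP1 and in 0 of 9 amino acid genes, against 0.0916% of all genes. ERSE-II was found in SDF2L1, HYOU1 and HERPUD1, against 0.0696% of all genes, and TGACGTGG in HYOU1, where it overlaps an ERSE-II match, against 0.927%. The members were chosen by name as genes of these responses, and the elements are those of the same responses. The shares therefore describe the lists and test nothing. A match is a string of letters and not a shown binding site.

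WASF3, the targeted gene, read 5.40, 5.80 and 4.52 in knockdown clones 1, 2 and 3 and 6.77, 6.42 and 6.59 in the control clones, as log2 RMA signals (the unit of all levels below, where a difference of 1 is 2-fold). All knockdown clones lay below all control clones, with a mean difference of −1.35 (SE 0.29, adjusted p = 0.102 in limma). Clones 1 and 3 read within the range of the leukocyte marker means (3.23 to 5.74), so the size of the difference and the order of the knockdown clones in WASF3 are limited by background. Markers of the line (VIM, CD44, AXL, CAV1, MSN and EGFR) had means from 10.6 to 14.2. ESR1 and PGR, the hormone receptors absent from triple-negative cells, read at most 6.11 and 3.56 in any clone. The other 4 genes listed as absent were not all low, since KRT19 read 10.98 to 11.7, EPCAM 7.38 to 8.67 (highest in knockdown clone 2) and GATA3 6.70 to 7.76. CDH1 (E-cadherin) read 7.33 in knockdown clone 1 and at most 5.19 in the other clones. The mean of the fibroblast markers lay between 4.98 and 5.12 in every clone and that of the 5 measured leukocyte markers between 4.52 and 4.75. The 3′ minus 5′ index of the GAPDH and ACTB control probe sets, which rises as RNA degrades, was 2.11, 1.62 and 1.66 in knockdown clones 1, 2 and 3 and 1.13, 1.47 and 1.26 in the control clones. It moves with the groups in every comparison below, and its part in them was not tested beyond the covariate fit given in the closing section.

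None of the 43 genes differed between the groups beyond the threshold on the probe set that represents it. The limma fit with Benjamini-Hochberg adjustment over 54613 probe sets called 0 higher and 0 lower at an adjusted p under 0.05, against 0.319% of all genes called higher and 0.42% called lower. The smallest adjusted p among the members was 0.117, of DNAJB11. Before adjustment, 5 members were higher at a p under 0.05 (11.6%: CEBPG, PSAT1, MTHFD2, CTH and SLC7A11) and 4 lower (9.3%: VLDLR, PHGDH, DNAJB11 and CRELD2). All genes gave 9.11% higher and 7.67% lower, and the 13043 genes with a mean above 5, as for 42 of the 43 members, gave 12.7% and 9.68%. These shares of the members are near the background. The knockdown clones all lay above the control clones in 7 members and all below in 8, or 16.3% and 18.6%, against 12.1% and 12.6% of all genes and 16.1% and 14.4% of those with a mean above 5. With 3 against 3 clones the exact two-sided permutation test of a single gene cannot go below p = 0.1, which is the value of each of these 15 genes. The plot of all members by clone shows how far the knockdown clones lay from one another.

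**Figure D1:**
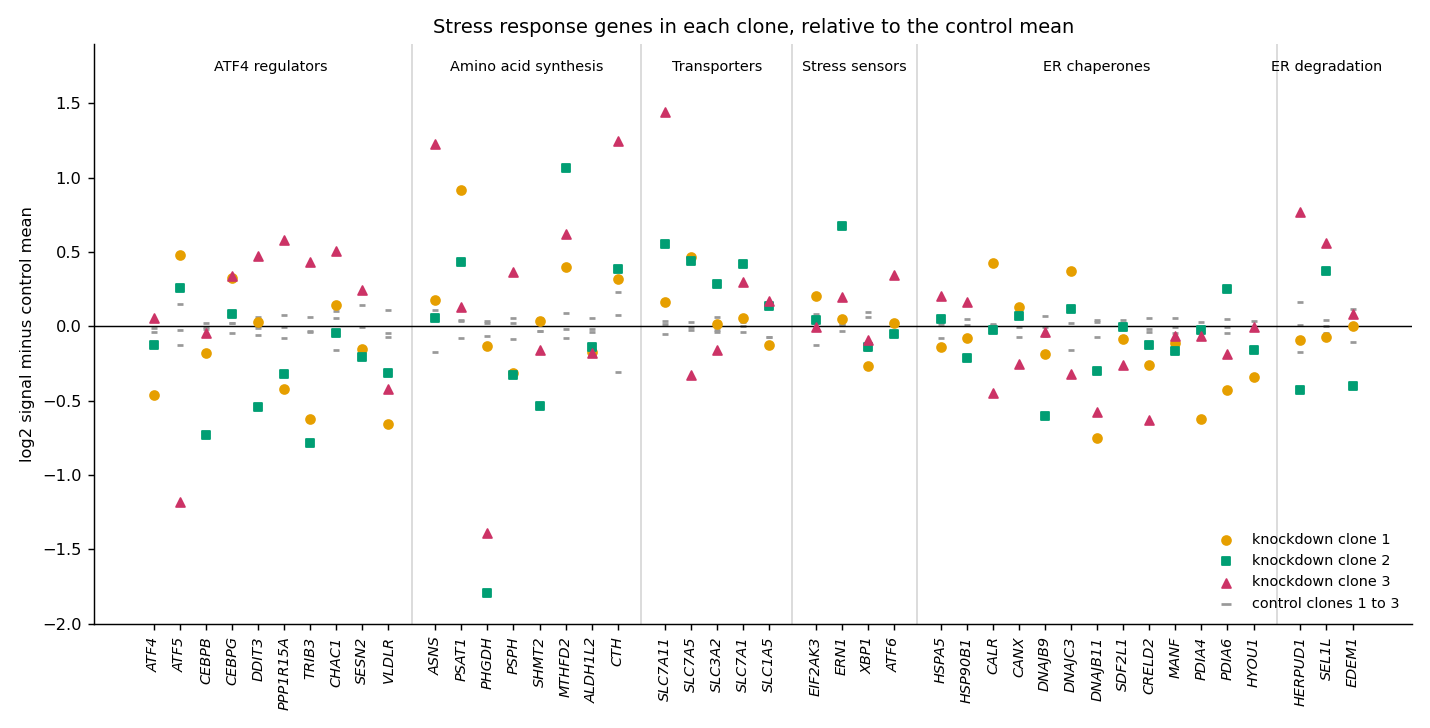
Log2 signal of each of the 43 genes in each clone after subtraction of the control mean (vertical axis), grouped by list along the horizontal axis. Coloured symbols are knockdown clones 1 to 3 and grey dashes the control clones. The control dashes, which enter the control mean, stay within 0.31 of 0, while knockdown clones reach −1.79 (PHGDH, clone 2) and 1.44 (SLC7A11, clone 3).

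The ATF4 transcript itself read 11.49, 11.83 and 12.01 in knockdown clones 1, 2 and 3 and 11.92, 11.94 and 11.99 in the control clones. Clone 1 was the low one and the groups overlapped, with a difference of −0.18 (95% interval −0.50 to 0.14, adjusted p = 0.634 in limma), which turned to 0.14 with the 3′ minus 5′ index in the fit. DDIT3 (CHOP), a factor induced by ATF4 that promotes cell death under lasting stress, read 9.38, 8.81 and 9.82 against 9.29, 9.41 and 9.34. Its mean difference of −0.01 (95% interval −0.55 to 0.52) hides a knockdown clone below all control clones and another above them. CHAC1, which degrades glutathione, read 7.01, 6.82 and 7.37 against 6.92, 6.97 and 6.70, a difference of 0.20 (95% interval −0.15 to 0.56). Knockdown clone 3 was the highest clone for both.

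TRIB3, a pseudokinase that feeds back on ATF4, read 7.44, 7.27 and 8.49 in the knockdown clones and 8.03, 8.03 and 8.12 in the control clones. Clones 1 and 2 lay below every control clone and clone 3 above, so the mean difference was −0.33 (SE 0.29, adjusted p = 0.687). Without knockdown clone 3 the difference was −0.70 and TRIB3 was called (adjusted p = 0.0143). Leaving out clone 3 raised the calls over all genes from 0.738% to 6.19%, and leaving out clone 1 raised them to 3.58%. A call without a clone, here and below, stands beside these shares. PPP1R15A (GADD34), the phosphatase subunit that reverses eIF2 phosphorylation, also had clone 3 highest, at 8.62, 8.72 and 9.62 against 9.12, 9.04 and 8.96. Its second probe set read 8.19, 8.14 and 9.05 against 8.59, 8.47 and 8.51, so both probe sets placed clone 3 above and clones 1 and 2 below the control clones. ATF5, another factor translated under eIF2 stress, went the other way, at 8.47, 8.25 and 6.81 against 7.87, 8.14 and 7.97. Knockdown clone 3 stood at 0.441 of the control signal of ATF5, and the next brightest probe set also put clone 3 lowest at 6.25, against 7.25 to 7.41 in the control clones.

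Of the factors that pair with ATF4, CEBPG read 8.92, 8.68 and 8.93 against 8.61, 8.62 and 8.55, without overlap of the groups (0.25, SE 0.10, adjusted p = 0.325). CEBPB, a related factor, read 11.63, 11.08 and 11.76 against 11.79, 11.80 and 11.83, a difference of −0.32 (adjusted p = 0.471) in which clone 2 stood lowest. VLDLR, a lipoprotein receptor that ATF4 induces, was lower in all 3 knockdown clones at 7.18, 7.52 and 7.41 against 7.79, 7.76 and 7.95 (−0.46, SE 0.12, adjusted p = 0.136). SESN2, a stress-induced inhibitor of mTORC1, gave −0.04 with overlapping groups.

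Enzymes of serine, one-carbon and asparagine metabolism did not share a direction, and none passed on its brightest probe set. PHGDH, which commits glucose carbon to serine, read 7.45, 5.80 and 6.20 in the knockdown clones and 7.53, 7.63 and 7.61 in the control clones. Clone 1 lay just under the control clones, while clones 2 and 3 stood at 0.288 and 0.381 of the control signal (difference −1.11, SE 0.37, adjusted p = 0.247). Without clone 1 the difference was −1.59 and was called (adjusted p = 0.0109). PSAT1, the next enzyme of the same pathway, was higher in every knockdown clone, at 11.10, 10.61 and 10.31 against 10.22, 10.10 and 10.22 (0.49, SE 0.19, adjusted p = 0.295). Clone 1 was the highest of them, and without clone 3, the lowest, the difference of 0.67 was called (adjusted p = 0.0465). The second probe set of PSAT1 gave −0.08 (SE 0.10).

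PSPH, the last enzyme of serine synthesis, depended on the probe set. The brightest one read 8.97, 8.96 and 9.65 against 9.20, 9.31 and 9.34 (−0.09, SE 0.19, adjusted p = 0.881). Another read 8.02, 7.84 and 7.93 against 7.31, 7.15 and 7.24, and on it PSPH rose 1.62-fold (0.69, SE 0.09, adjusted p = 0.0378 in limma). It was the 1 call among all probe sets of the members.

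MTHFD2, the mitochondrial dehydrogenase of one-carbon metabolism, read 9.80, 10.47 and 10.02 in the knockdown clones and 9.39, 9.33 and 9.50 in the control clones. All knockdown clones were higher, clone 2 most so, with a mean ratio of 1.62 (0.69, SE 0.17, 95% interval 0.30 to 1.08, adjusted p = 0.125). It was called without clone 1 (0.84, adjusted p = 0.0435). The dimmer probe set of MTHFD2, with a mean of 4.72 within the range of the leukocyte markers, gave 0.39 (SE 0.24). On it knockdown clones 1, 2 and 3 lay 0.14, 0.99 and 0.04 above the control mean. SHMT2, the mitochondrial enzyme that takes a carbon from serine just before MTHFD2, gave −0.22 (SE 0.15), and its other probe sets gave −0.36 and −0.30. ASNS, which makes asparagine, read 7.68, 7.56 and 8.72 against 7.56, 7.33 and 7.61, so that clone 3 was 2.34-fold above the control mean and clones 1 and 2 were 1.13-fold and 1.04-fold above it (mean 0.49, SE 0.29, adjusted p = 0.514). CTH, which makes cysteine from cystathionine, read 6.14, 6.21 and 7.07 against 5.90, 5.52 and 6.05. Clone 3 again stood highest, at 2.38-fold (mean 0.65, SE 0.26, adjusted p = 0.324), and its dimmer probe set gave 0.02. ALDH1L2, a mitochondrial folate enzyme, read 4.10 to 4.14 against 4.24 to 4.33, within the range of the leukocyte markers, and a level above background is not shown.

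**Figure D2:**
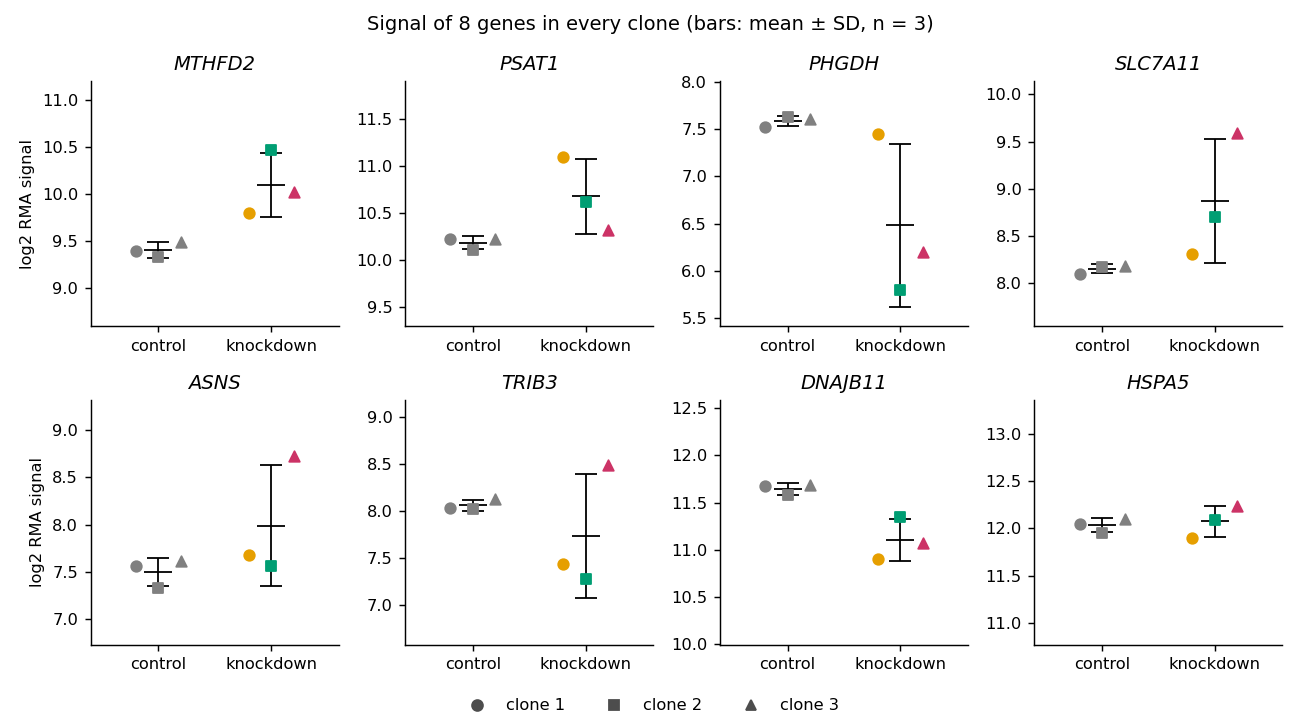
Log2 RMA signal (vertical axes, all spanning the same range) of 8 genes in each control and knockdown clone; symbols are clones and bars the mean and SD of 3 clones. Knockdown clone 3 is the highest point for SLC7A11, ASNS and TRIB3, clone 1 for PSAT1 and clone 2 for MTHFD2, and the groups overlap for ASNS, TRIB3 and HSPA5.

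All 5 amino acid transporters had a higher mean in the knockdown clones and none passed. SLC7A11, the cystine importer, read 8.31, 8.70 and 9.59 against 8.10, 8.17 and 8.18, without overlap (0.72, SE 0.29, 95% interval 0.05 to 1.39, adjusted p = 0.324). The knockdown clones were 1.12-fold, 1.47-fold and 2.71-fold above the control mean. A second bright probe set of SLC7A11 read 7.70, 8.48 and 9.25 against 7.60, 7.53 and 7.52, with the same order of clones. SLC7A1, the importer of arginine and lysine, read 11.17, 11.54 and 11.42 against 11.08, 11.12 and 11.15 (0.26, SE 0.11, adjusted p = 0.357). SLC7A5, the light chain of the LAT1 leucine exchanger, read 10.32, 10.29 and 9.53 against 9.88, 9.85 and 9.83. Clones 1 and 2 lay above and clone 3 below the control clones, and without clone 3 the difference of 0.45 was called (adjusted p = 0.0335). SLC3A2, the heavy chain shared by LAT1 and the cystine importer, gave 0.05 (95% interval −0.24 to 0.34). SLC1A5, a glutamine importer, read 8.58, 8.85 and 8.88 against 8.85, 8.63 and 8.63, a difference of 0.06.

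The stress sensors differed little in RNA level, which does not read their activation. EIF2AK3 read 8.21, 8.06 and 8.01 against 8.05, 7.89 and 8.09 (0.08, 95% interval −0.15 to 0.32). ERN1 read 7.47, 8.10 and 7.62 against 7.44, 7.39 and 7.43, with clone 2 highest and without overlap (0.31, adjusted p = 0.448). XBP1 read 8.48, 8.61 and 8.66 against 8.81, 8.59 and 8.85 (−0.17, 95% interval −0.41 to 0.08), a level that does not single out the spliced form. ATF6 read 9.37, 9.30 and 9.70 against 9.31, 9.37 and 9.36 (0.11, 95% interval −0.17 to 0.39). None of these 4 genes had an unadjusted p under 0.05 on its brightest probe set. The dimmer probe set of XBP1 gave 0.41 (unadjusted p = 0.00756, adjusted p = 0.168 in limma).

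The central chaperone HSPA5 (BiP), which holds the sensors inactive and is the usual readout of ER stress, read 11.90, 12.09 and 12.24 in the knockdown clones and 12.05, 11.96 and 12.10 in the control clones. The groups overlapped and the difference was 0.04 (95% interval −0.22 to 0.30, adjusted p = 0.916). HSP90B1 (GRP94), its partner, gave −0.04 (95% interval −0.31 to 0.23). The lectin chaperones CALR and CANX each gave −0.02, but CALR was spread over the knockdown clones at 11.11, 10.66 and 10.24 against 10.66, 10.70 and 10.70.

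The chaperone that stood lowest was DNAJB11, a co-chaperone of HSPA5, at 10.90, 11.34 and 11.07 against 11.68, 11.57 and 11.69. All 3 knockdown clones lay below the control clones, at 68.7% of the control signal (−0.54, SE 0.13, 95% interval −0.83 to −0.25, adjusted p = 0.117). CRELD2, a secreted protein of the ER stress response, read 9.11, 9.25 and 8.74 against 9.33, 9.42 and 9.35, also without overlap (−0.34, SE 0.14, adjusted p = 0.327). DNAJB9, a co-chaperone that restrains IRE1, read 7.94, 7.53 and 8.09 against 8.12, 8.06 and 8.20 (−0.28, adjusted p = 0.470). HYOU1, the nucleotide exchange factor of HSPA5, read 10.50, 10.69 and 10.84 against 10.88, 10.83 and 10.83 (−0.17, adjusted p = 0.544). MANF and the disulphide isomerase PDIA4 lay lower in all knockdown clones by −0.11 and −0.24. On this probe set PDIA4 was lower mostly through clone 1, at 10.24 against 10.84 and 10.80 in clones 2 and 3. The second probe set of PDIA4 gave −0.18, with knockdown clones 1, 2 and 3 at −0.08, −0.06 and −0.40 from the control mean. With the index in the fit, PDIA4 turned to 0.22 on the brighter probe set. PDIA6, SDF2L1 and DNAJC3 gave −0.12, −0.11 and 0.06 with overlapping groups.

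In ER-associated degradation, HERPUD1, whose window holds a TGATGNAA and an ERSE-II match, read 9.52, 9.18 and 10.38 against 9.62, 9.44 and 9.78. Clone 3 was 1.70-fold above the control mean and clone 2 below every control clone (mean 0.08, SE 0.28, adjusted p = 0.933). SEL1L, the scaffold of the HRD1 ubiquitin ligase, read 8.48, 8.93 and 9.12 against 8.51, 8.56 and 8.60 (0.29, adjusted p = 0.484). EDEM1, a lectin that hands misfolded glycoproteins to the ligase, read 9.03, 8.63 and 9.12 against 9.02, 8.93 and 9.15 (−0.10, adjusted p = 0.806).

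Set side by side, the amino acid branch lay above its control level and the chaperone branch slightly below it. The median difference was 0.19 over the 13 amino acid genes, of which 9 had a higher mean, and −0.11 over the 16 chaperone branch genes, of which 12 had a lower mean. All genes had a median of −0.01, with 47.6% higher, and those with a mean above 5 a median of 0.00. Before adjustment, 4 amino acid genes were higher and 1 lower at a p under 0.05, and 0 chaperone branch genes were higher and 2 lower. As shares these are 30.8% and 7.69% of the amino acid genes and 0% and 12.5% of the chaperone branch, beside 9.11% and 7.67% of all genes and 12.7% and 9.68% of those with a mean above 5, so the lower chaperone count is near the background. The knockdown clones lay apart from the controls upward in 5 and downward in 2 amino acid genes, and upward in 0 and downward in 4 chaperone branch genes. That is 38.5% and 15.4% of the amino acid genes and 0% and 25% of the chaperone branch, beside 12.1% and 12.6% of all genes and 16.1% and 14.4% of those with a mean above 5. ALDH1L2, which is not shown to lie above background, is 1 of the 2 downward amino acid genes and enters the median and the count of 13, and the median over the other 12 was 0.23. The chaperone median lay below the amino acid median by −0.30, and in knockdown clones 1, 2 and 3 taken singly by −0.16, −0.36 and −0.23. The median of the amino acid branch was 0.06, 0.28 and 0.17 in clones 1, 2 and 3 and that of the chaperone branch −0.10, −0.08 and −0.06. These medians describe lists chosen by name, with earlier results of these data known, and carry no test. Without knockdown clone 2 they were 0.07 and −0.07, and the difference −0.14.

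**Figure D3:**
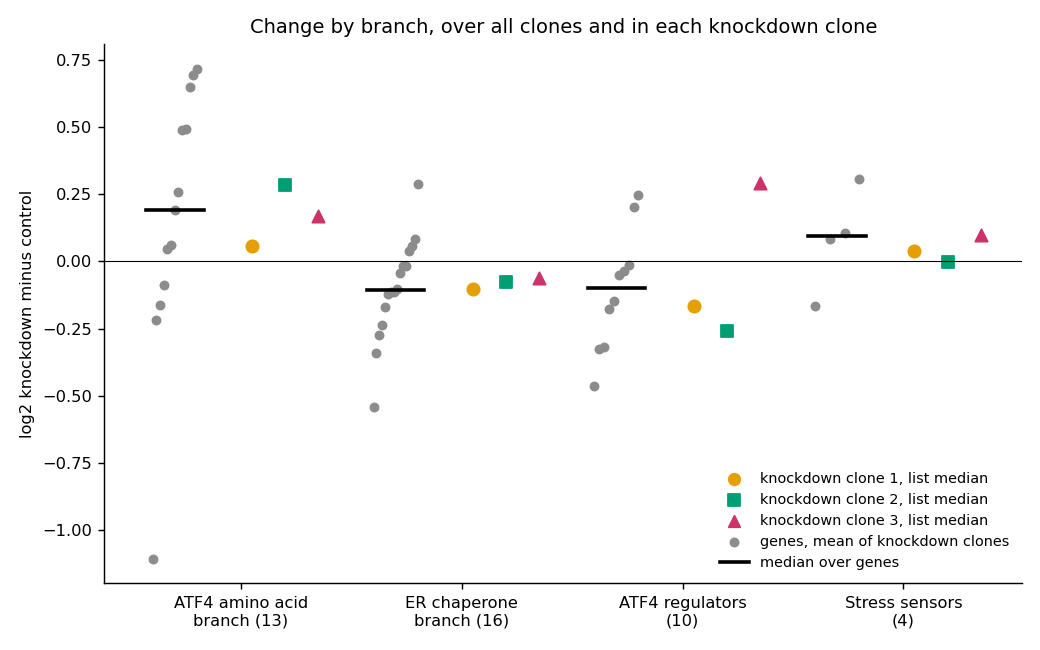
Log2 difference between knockdown and control (vertical axis) for each gene, by branch (grey points, with the median as a black line), and the median of the branch in each knockdown clone (coloured symbols). The amino acid medians lie above 0 and the chaperone medians below 0 in all 3 clones, while the regulator median is above 0 in clone 3 only, at 0.29.

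The regulators split by clone, with medians of −0.17, −0.26 and 0.29 in knockdown clones 1, 2 and 3. Clone 3 was the highest knockdown clone for 8 of the 10 regulators (ATF5 and VLDLR were the exceptions) and for 23 of the 43 members, 53.5%, against 35.3% of all genes and 34.6% of those with a mean above 5. Single clones have no test, so a difference of at least 0.5 from the control mean was counted. No control clone reached it for any member, but each control clone enters that mean. Of all 19775 genes, only 1 had a control clone that far away, so this is no trait of the members. In clone 3 there were 8 members at least 0.5 above the control mean, or 18.6% (PPP1R15A, CHAC1, ASNS, MTHFD2, CTH, SLC7A11, HERPUD1 and SEL1L), against 7.22% of all genes and 9.72% of those with a mean above 5. Another 4 lay at least 0.5 below (ATF5, PHGDH, DNAJB11 and CRELD2), or 9.3%, against 7.34% of all genes and 10.4% of those with a mean above 5. CHAC1, at 0.51, was just inside this limit and DDIT3, at 0.47, just outside.

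In clone 2 the balance was the other way, with 3 members above, or 6.98% (MTHFD2, SLC7A11 and ERN1), and 6 below, or 13.95% (CEBPB, DDIT3, TRIB3, PHGDH, SHMT2 and DNAJB9). All genes gave 6.73% and 3.63%, and those with a mean above 5 gave 9.4% and 4.83%. In clone 1, PSAT1 was above (2.33%) and TRIB3, VLDLR, DNAJB11 and PDIA4 were below (9.3%), against 5.2% and 3.94% of all genes and 7.15% and 5.51% of those with a mean above 5. MTHFD2 and SLC7A11 were the genes above the limit in both clones 2 and 3.

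Spread among the knockdown clones was larger than among the control clones for 40 of the 43 members, and for all 10 regulators and all 16 genes of the chaperone branch. The median SD of the members was 0.29 over the knockdown clones and 0.06 over the control clones. For genes with a mean above 5 it was 0.19 and 0.06, and 85.5% of them had the larger SD in the knockdown clones. The widest members were ATF5 (SD 0.90 in knockdown and 0.14 in control clones), PHGDH (0.87 and 0.06) and TRIB3 (0.66 and 0.05), followed by SLC7A11 and ASNS. Their SD among the knockdown clones was larger than that of 95.6% (ASNS) to 98.4% (ATF5) of the genes with a mean above 5.

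**Figure D4:**
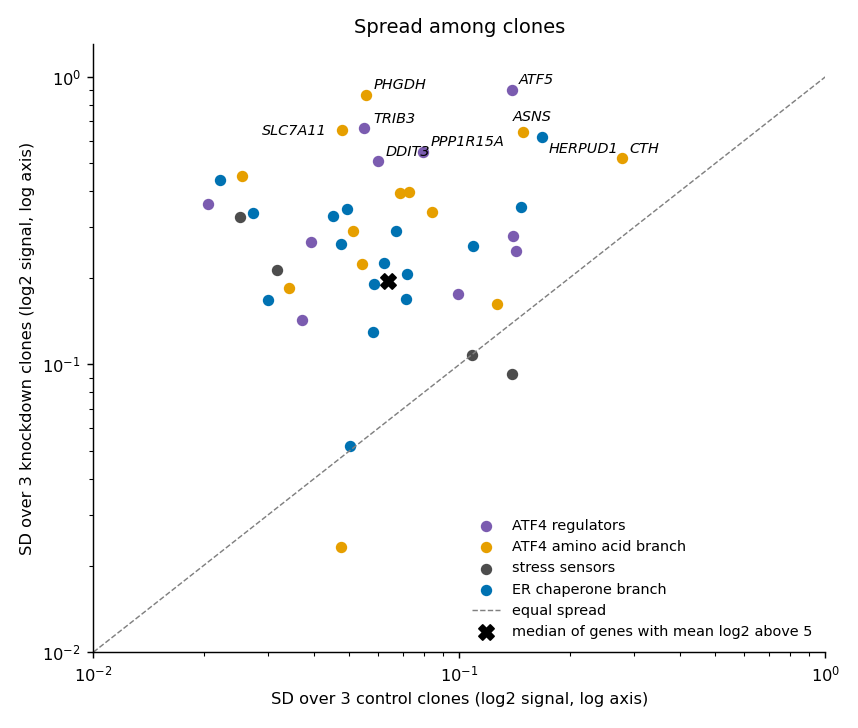
SD over the 3 knockdown clones (vertical log axis) against SD over the 3 control clones (horizontal log axis) of the log2 signal of each of the 43 genes, coloured by branch; the cross is the median of genes with a mean above 5 and the dashed line marks equal spread. All but 3 points lie above the line, and the 9 labelled genes have an SD above 0.5 in knockdown clones.

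Other genes of the same pathways, in 4 lists of which 95 of 104 genes were measured, gave 1 call. These lists, too, were chosen with earlier results of these data known. DDIT4 (REDD1), an inhibitor of mTORC1 that ATF4 and hypoxia both induce, read 9.18, 9.22 and 9.62 against 10.47, 10.52 and 10.50 and fell to 44.8% of the control signal (−1.16, SE 0.13, adjusted p = 0.0311 in limma). Its direction held in each alternative that measured it and its call was lost in 6 of them, among which were the fits without knockdown clone 2 (adjusted p = 0.0744) and without control clone 1, 2 or 3 (0.260, 0.230 and 0.238). Among the other 24 measured ATF4 and amino acid response genes, DDIT4 included, 13 had a higher mean, with KLHL24 at 0.26 and JDP2 at 0.29 having the next smallest p (adjusted p = 0.261 and 0.326). Only 1 of 5 probe sets of KLHL24 and 1 of 2 of JDP2 had this sign.

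Aminoacyl-tRNA synthetases of the cytosol, which charge tRNAs and hold many ATF4 targets, had a higher mean in 13 of 17 measured genes and a median of 0.22. Over all genes, 47.6% had a higher mean. Before adjustment 5 synthetases (29.4%) were higher and 0 lower at a p under 0.05, beside 9.11% and 7.67% of all genes and 12.7% and 9.68% of those with a mean above 5, and none passed. IARS1 read 11.84, 11.76 and 11.93 against 11.33, 11.36 and 11.44 (0.47, SE 0.09, adjusted p = 0.0742), TARS1 gave 0.60 (adjusted p = 0.111) and KARS1 0.33 (adjusted p = 0.267). Only 1 of the 2 probe sets of TARS1 had this sign. IARS1 was called without knockdown clone 3 (adjusted p = 0.0458) and TARS1 without clone 1 (adjusted p = 0.0364), in fits that called 6.19% and 3.58% of all genes. In clone 3, 6 synthetases lay at least 0.5 above the control mean (AARS1, IARS1, KARS1, LARS1, SARS1 and TARS1), in clone 2 TARS1 alone and in clone 1 none. The upward share in clone 3 was 7.22% of all genes and 9.72% of those with a mean above 5.

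Of the 14 genes of the eIF2 machinery, EIF2AK1, the haem-regulated eIF2 kinase, gave −0.49 (SE 0.09, adjusted p = 0.0779) and EIF2AK4 (GCN2), the kinase of amino acid shortage, 0.59 (SE 0.17, adjusted p = 0.191), with 1 gene in each direction at an unadjusted p under 0.05 (7.14% each, below the 9.11% and 7.67% of all genes). EIF2B3, a subunit of the eIF2 exchange factor, gave −0.32 (adjusted p = 0.432). EIF2AK1 was called at −0.54 when knockdown clone 1 was left out (adjusted p = 0.0437) and at −0.50 when clone 3 was (adjusted p = 0.0409). Of 40 other genes of ER folding, translocation and degradation 29 (72.5%) had a lower mean, with a median of −0.09, against 52.4% of all genes with a lower mean. Before adjustment 2 (5%) were higher and 4 (10%) lower at a p under 0.05, beside 9.11% and 7.67% of all genes and 12.7% and 9.68% of those with a mean above 5, so the lower count is near the background. SEC61A1, the pore of the ER translocon, gave −0.59 (SE 0.14, adjusted p = 0.113), the secreted ER protein MYDGF −0.39 (adjusted p = 0.121) and the translocon protein SERP1 −0.34 (adjusted p = 0.243). SEC61A1 was called at −0.71 with clone 1 left out (adjusted p = 0.0379) and at −0.45 with clone 3 left out (adjusted p = 0.0468), where SERP1 was also called at −0.45 (adjusted p = 0.0346). Over all genes, 3.58% were called without clone 1 and 6.19% without clone 3.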

How the data were processed

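Expression was measured on Affymetrix arrays in 3 knockdown and 3 control clones, grouped by their labels. The deposited table holds log2 values that the authors computed by RMA; the submitters' processing notes name Affymetrix Expression Console 1.0. RMA equalises the distribution of the arrays, so a change shared by most genes is not seen. Array medians lay between 5.12 and 5.17, and the number of arrays limits the precision. The table has 0 columns of other samples.

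Genes were named from the platform annotation given with the table: 41091 probe sets carried 1 symbol, 1801 several and 11721 none. Symbols were updated by identifier (41037 matched) with RefSeq on GRCh38.p14, which also gave the promoter windows. All probe sets other than 62 controls were fitted with limma 3.58.1 in R 4.3.3 (lmFit, eBayes), group as the only term, two-sided, with Benjamini-Hochberg adjustment over 54613 probe sets; intervals use the moderated SE with 3.49 prior and 4 residual degrees of freedom. The fit was tested on simulated data.

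Members and lists were chosen with earlier results of these data known. Values in every clone are given for ATF4, DDIT3, XBP1, HSPA5, ASNS and CHAC1, for members that passed, for up to 4 members with the smallest p in each list and for the 3 with the largest SD among knockdown clones. Up to 3 genes are named per other list. Members outside this rule whose clone values are printed (PPP1R15A, PSPH, CALR, ALDH1L2 and PDIA4) were chosen after their values were seen. Deviations of clones with the same replicate number correlated at −0.07, −0.10 and −0.04, so the numbers do not pair clones.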

Additional observations from a re-analysis of the deposited data

How the results depend on the processing

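Alternatives were the replicate number as a block, an intensity trend, the mean of all probe sets, probe sets without _s_at or _x_at, a mean above 5, arrays centred on their median, repeated quantile normalization, the 3′ minus 5′ index added as covariate, and leaving out each clone. The 0 calls among the members held except without probe sets matching several transcripts (1 call, PSPH, among 33 members) and without a clone (0 to 3). Without knockdown clone 1, 4.65% of the members were called against 3.58% of all genes. Without knockdown clone 3 the shares were 6.98% and 6.19%, so the members were near the background. Members at an unadjusted p under 0.05 numbered 9 of 43, and 3 to 15 without a clone. The share of all genes was 16.8%, and 10.5% to 24.2% without a clone, so the range of the members moves with that of all genes. Without a clone the amino acid median ranged from 0.070 to 0.21, the chaperone median from −0.14 to −0.073 and their difference from −0.31 to −0.14; no setting changed the sign of either branch median. The chaperone median was −0.087 after centring, which moved the median of all genes from −0.01 to 0.01, and the branch difference was −0.41 without probe sets matching several transcripts. With the replicate block 0 members were called and 8 had an unadjusted p under 0.05, beside 14.3% of all genes. Calls over all genes went from 146 to 3, and DDIT4 was not called (adjusted p = 0.140), nor was it with the index as a covariate (0.210). Signs turned with the mean of all probe sets for PSPH (0.23), XBP1 (0.12), HSPA5 (−0.15) and KLHL24 (−0.30). They turned without probe sets matching several transcripts for ASNS (−0.21), PSPH (0.69), HERPUD1 (−0.040) and KLHL24 (−0.73). The probe sets left for ASNS and HERPUD1 had means of 2.81 and 4.50, below and within the range of the leukocyte marker means, so these values say nothing about the direction of either gene. Centring gave DDIT3 0.0088, CALR 0.0054 and CANX 0.0053, and quantile normalization CANX 0.0036. With the index as a covariate signs turned for ATF4 (0.14), PPP1R15A (0.36), SESN2 (0.13), PSPH (0.10), SLC7A5 (−0.082), XBP1 (0.054), DNAJC3 (−0.21), PDIA4 (0.22), PDIA6 (0.28) and HYOU1 (0.047). Leaving out a clone turned the sign of ATF5 (−0.46 to 0.37), ATF6 (−0.014 to 0.19), CALR (−0.24 to 0.20), CANX (−0.090 to 0.10), DDIT3 (−0.25 to 0.25), DNAJC3 (−0.10 to 0.25), EDEM1 (−0.20 to 0.043), HERPUD1 (−0.26 to 0.34), HSP90B1 (−0.14 to 0.044), HSPA5 (−0.042 to 0.13), PDIA6 (−0.31 to 0.033), PPP1R15A (−0.37 to 0.13), PSPH (−0.32 to 0.028), SESN2 (−0.18 to 0.048) and SLC3A2 (−0.072 to 0.15). Apart from fewer clones or probe sets, the cause of these turns was not tested. On the probe set that represents it, no member, whether its sign turned or not, had passed the threshold in the fit of all clones. A dimmer probe set of PSPH had passed in that fit (0.69, adjusted p = 0.0378 in limma).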

Other observations

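Of the 43 members, 28 had more than 1 probe set, and in 16 of these all probe sets had the same sign. For XBP1 the dimmer probe set gave 0.41 (SE 0.11, adjusted p = 0.168 in limma) against −0.17 on the brighter one, and for HSPA5 the dimmer one gave −0.34 (SE 0.19) with knockdown clone 2 lowest at 7.53. For CALR the dimmest probe set gave −0.42 (SE 0.21). A dimmer probe set of DNAJC3, the co-chaperone that inhibits PERK, read 6.00, 5.67 and 5.58 in the knockdown clones and 5.01, 5.18 and 5.33 in the control clones (0.57, SE 0.14, adjusted p = 0.128), against 0.06 on the brightest. These probe sets were chosen after their values were seen.

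GDF15, a secreted stress cytokine induced by ATF4 and CHOP, was also chosen after its values were seen. It read 7.33, 6.18 and 8.36 in knockdown clones 1, 2 and 3 and 7.84, 7.81 and 7.80 in the control clones, with clone 3 above and clones 1 and 2 below all control clones, as for TRIB3 and PPP1R15A (−0.53, SE 0.47, adjusted p = 0.682). ATF3, a factor downstream of ATF4, read 6.44, 6.85 and 7.51 against 6.87, 6.94 and 6.93, again with clone 3 highest (0.03, SE 0.24, adjusted p = 0.978). Only 1 of 3 probe sets of ATF3 had this sign. Among the 24 measured genes of the list that holds both, clone 3 was the highest knockdown clone for 14 (58.3%) and the lowest for 5. Over all genes it was the highest for 35.3%.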
